A study of Mus musculus with 8 samples.

Results

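Laminins are the cross-shaped glycoproteins around which basement membranes, the thin matrix sheets under epithelia and around vessels, muscle and nerve, are built. Each laminin is a trimer of 1 α, 1 β and 1 γ chain, and every chain is encoded by a gene of its own. The identity of the α chain sets which cell surface receptors the trimer can bind, and the chains differ in where they are made, so the set of chains transcribed in a tissue describes the kinds of basement membrane being produced there. Azoxymethane (AOM) followed by dextran sulfate sodium (DSS) is a mouse model of inflammation-driven colon cancer in which DSS injures the colonic epithelium.

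RNA of 9 laminin chain genes was examined, out of the 15859 genes in the deposited count table. They were picked by symbol and comprise 5 α chains (*Lama1*, *Lama2*, *Lama3*, *Lama4* and *Lama5*), 3 β chains (*Lamb1*, *Lamb2* and *Lamb3*) and the γ chain *Lamc1*. *Lama1* was chosen as the chain to set against the others because the study singled it out on these same samples, so its pattern here is not independent evidence. The remaining γ chains were not analysed here. All 9 passed the filter on low counts and were tested.

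The RNA came from the distal colon of 8 male mice of a BALB/c x 129SvEV background, aged 10 weeks according to the labels. The 4 groups held 2 mice each. They were untreated WT mice and untreated *Hsf1* null mice, called day 0, and WT and *Hsf1* null mice given 10 mg/kg AOM and then 1.5% DSS to drink for 5 days, a single cycle, called day 15 as in the sample titles. *Hsf1* encodes heat shock factor 1, the transcription factor of the heat-shock response. The null allele is carried by every cell of the mouse, so a difference between genotypes does not tell in which cell type the gene acts. Control mice differed from treated mice in both AOM and DSS, which cannot be told apart.

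Libraries held 2553348 to 12440257 counts, and the smallest libraries were mouse 2 of WT day 0 and mouse 2 of *Hsf1* null day 0. *Hsf1* itself was at 36.5 to 50.4 CPM, counts scaled to the size of the library, in the 4 WT mice and at 9.09 to 13.95 CPM in the 4 *Hsf1* null mice, so the labels and the targeted gene matched in every sample. All 8 epithelial markers were in the table, and their sum was 9649.9 CPM or more in every mouse. Of 8 squamous epithelium markers 5 were not in the table, and the sum of the other 3 was at most 17.9 CPM. By the numbers in the titles each library came from a mouse of its own, so p-values measure the spread between these mice. With 2 mice against 2, an exact permutation test of a single value cannot give a two-sided p below 0.333, so differences were tested by a model over all genes, edgeR's quasi-likelihood test, in which the estimate of each gene's spread borrows from the other genes.

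The genes lie on 7 different chromosomes, none of them that of *Hsf1*. In GRCm38 (mm10), *Lama1* spans chr17:67697259-67822647 on the plus strand, with 64 separate exonic blocks in the GENCODE M21 annotation. *Lama2* (chr10:26980036-27619758, minus strand) shares 631 exonic bases with an antisense gene, and *Lama3* shares 197. The kit keeps strand, but whether the counting used it was not given in the sources used here, so reads from those stretches could belong to either strand. No exonic base of the other 7 chains was shared with another gene.

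Because heat shock factor 1 binds DNA at inverted repeats of the letters GAA, the 250 bases upstream of the start site were searched on the windows that RefSeq gives for GRCm38.p6. Windows were at hand for 5 of the 9 chains (*Lama2*, *Lama5*, *Lamb1*, *Lamb2* and *Lamb3*, the last with 2 start sites). The pair of repeats facing each other, GAANNTTC, was in 1 of these 6 windows and in 6.69% of 32851 promoter windows of all genes. The pair facing apart, TTCNNGAA, was in 0 of the 6 and in 7.17% of all windows, and the run of 3 repeats, GAANNTTC followed by any 2 bases and GAA, was in 0 of the 6 and in 0.466% of all. These motifs read the same on both strands except for the run of 3, which was searched on both and contains both of the pairs. Shown first is *Lama2*, the chain with a match, with the matched repeats in capitals (chr10:27616943-27617192, minus strand), starting 230 bases before the start site. Then come the chains called below with all 8 mice in edgeR for which a window was at hand, *Lama5* (chr2:180225860-180226109, minus strand) and the more upstream window of *Lamb3* (chr1:193301744-193301993, plus strand), which hold no match. All are printed 5′ to 3′.
Lama2: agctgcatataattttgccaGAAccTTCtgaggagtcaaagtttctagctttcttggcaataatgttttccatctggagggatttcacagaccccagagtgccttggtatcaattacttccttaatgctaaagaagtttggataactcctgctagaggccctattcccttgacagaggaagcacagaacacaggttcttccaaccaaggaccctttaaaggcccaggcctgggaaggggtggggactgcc
Lama5: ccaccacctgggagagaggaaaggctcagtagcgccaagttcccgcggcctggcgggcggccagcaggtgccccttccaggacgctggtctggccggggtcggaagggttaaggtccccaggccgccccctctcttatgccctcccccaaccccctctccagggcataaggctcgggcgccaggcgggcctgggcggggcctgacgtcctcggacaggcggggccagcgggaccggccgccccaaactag
Lamb3: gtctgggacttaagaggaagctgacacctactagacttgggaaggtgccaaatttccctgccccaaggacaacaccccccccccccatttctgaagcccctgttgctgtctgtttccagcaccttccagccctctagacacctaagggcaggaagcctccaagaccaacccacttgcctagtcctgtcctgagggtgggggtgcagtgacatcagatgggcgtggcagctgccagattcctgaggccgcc
A match is a description of the letters only, and no binding was measured in these samples.

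*Lama1* encodes the α chain of the laminin of early embryonic basement membranes, and in adults it is found in a limited set of tissues. Untreated WT mice had 2.25 and 2.38 CPM of it and untreated *Hsf1* null mice 1.40 and 2.87 CPM, from 6 to 23 counts per mouse. Treated WT mice had 38.3 and 61.3 CPM, from 440 and 581 counts, and treated *Hsf1* null mice had 3.26 and 8.29 CPM, from 21 and 62 counts. Thus both treated WT mice stood far above all other mice, and both treated *Hsf1* null mice stood above all untreated ones.

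The other α chains showed smaller differences. *Lama4*, a chain of vascular and mesenchymal basement membranes, was at 49.8 and 31.7 CPM in WT day 0, at 23.3 and 49.9 CPM in *Hsf1* null day 0, at 70.0 and 83.5 CPM in WT day 15, and at 17.1 and 41.4 CPM in *Hsf1* null day 15. Both treated WT mice were above all the others. *Lama5*, the α chain most widely used in adult epithelial basement membranes, was at 48.2 and 28.6 CPM in WT day 0, at 34.6 and 24.8 CPM in *Hsf1* null day 0, at 103 and 100.3 CPM in WT day 15, and at 39.4 and 72.3 CPM in *Hsf1* null day 15. Again the treated WT mice were the highest, and 1 treated *Hsf1* null mouse was within the range of untreated mice.

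*Lama2*, the α chain of muscle and peripheral nerve, was at 24.6 and 11.9 CPM in WT day 0, at 8.70 and 21.2 CPM in *Hsf1* null day 0, at 34.0 and 13.6 CPM in WT day 15, and at 4.34 and 10.6 CPM in *Hsf1* null day 15. It varied more than 2-fold between the mice of every group. *Lama3*, the α chain of the laminin that anchors epithelial cells through hemidesmosomes, stayed between 46.3 and 64.7 CPM in all 8 mice. Its groups overlapped except for WT day 0, at 64.7 and 60.7 CPM, and *Hsf1* null day 15, at 58.3 and 52.4 CPM.

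Among the β chains, *Lamb1*, the most widespread of them, was at 83.1 and 40.9 CPM in WT day 0, at 37.2 and 57.8 CPM in *Hsf1* null day 0, at 98.3 and 112 CPM in WT day 15, and at 19.1 and 65.9 CPM in *Hsf1* null day 15. *Lamb2*, known from vessel walls, the kidney filter and the nerve-muscle junction, stayed between 29.4 and 44.0 CPM in all mice. *Lamb3*, which joins *Lama3* in the epithelial laminin, was at 183 and 196 CPM in WT day 0, at 190 and 99.8 CPM in *Hsf1* null day 0, at 218 and 294 CPM in WT day 15, and at 467 and 390 CPM in *Hsf1* null day 15. For *Lamb3* the treated *Hsf1* null mice were therefore the highest, in contrast to *Lama1*, *Lama4*, *Lama5* and *Lamb1*.

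*Lamc1*, the γ chain that most laminins share, was at 156 and 105 CPM in WT day 0 and at 104 and 101 CPM in *Hsf1* null day 0. It was at 254 CPM in both treated WT mice and at 60.8 and 142 CPM in the treated *Hsf1* null mice. The plot of levels by mouse shows these 9 patterns side by side.

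**Figure D1:**
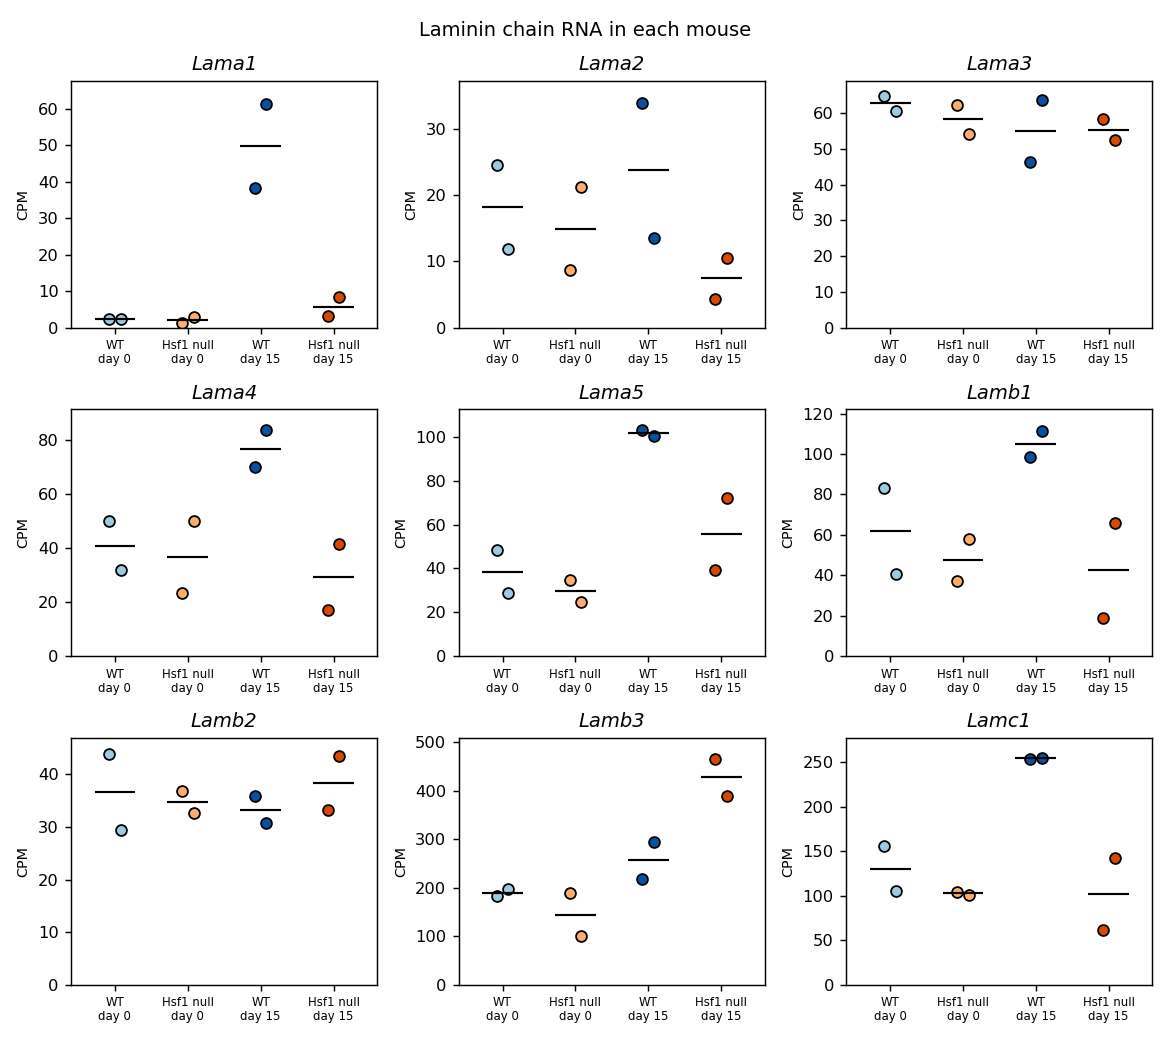
CPM of each laminin chain (vertical axes, linear from 0) in the 4 groups; points are mice (n = 2 per group) and lines are group means. *Lama1* was at 38.3 and 61.3 CPM in the treated WT mice against at most 8.29 CPM elsewhere, while *Lamb3* was highest in the treated *Hsf1* null mice, at 467 and 390 CPM.

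To compare levels between genes, CPM was divided by the length of all exons of a gene. On this scale *Lamb3* had the highest level and *Lamc1* the second highest in all 4 groups. *Lamb3* was at 28.7 ± 1.48 CPM per kb (SD, n = 2) in WT day 0, 21.9 ± 9.61 in *Hsf1* null day 0, 38.8 ± 8.17 in WT day 15 and 64.8 ± 8.17 in *Hsf1* null day 15, and its 2 mice did not overlap with those of *Lamc1* in any group. At day 0 *Lama1* was the lowest of the 9 chains in both genotypes, at 0.239 ± 0.00933 CPM per kb in WT and 0.220 ± 0.108 in *Hsf1* null, with no overlap with *Lama2*, the chain just above it. At day 15 it stood at 5.14 ± 1.69 CPM per kb in WT, seventh in the order, where it overlapped with *Lamb2* just above and *Lama3* just below. In *Hsf1* null it stood at 0.596 ± 0.367 CPM per kb, eighth in the order, and overlapped with *Lama2*, the lowest. Next to each other, *Lama4* and *Lama5* overlapped in WT day 0 and *Hsf1* null day 0, and *Lama5* was above *Lama4* without overlap in WT day 15. Both this order and that of *Lama1* and *Lama2* in *Hsf1* null day 15 turned when the length of the longest transcript was used in place of all exons.

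Every laminin takes up 1 α chain, so the share of each gene in the summed level of the 5 α chains was computed per mouse. *Lama1* made up 1.44% and 2.09% of it in WT day 0, 1.26% and 2.29% in *Hsf1* null day 0, 15.7% and 22.0% in WT day 15, and 3.09% and 5.30% in *Hsf1* null day 15. These shares did not overlap between treated WT mice and any other group. *Lama3* made up 42.7% ± 7.53 (SD, n = 2) in WT day 0, 44.8% ± 8.24 in *Hsf1* null day 0, 18.8% ± 2.44 in WT day 15 and 40.0% ± 13.9 in *Hsf1* null day 15. Its lower share in treated WT mice went with a larger α chain total, 27.0 ± 2.55 CPM per kb against 13.9 ± 3.08 in WT day 0, 12.2 ± 1.07 in *Hsf1* null day 0 and 13.5 ± 3.72 in *Hsf1* null day 15, while *Lama3* itself differed between days in WT by -0.19 ± 0.25 on the log2 scale (SE). *Lama5* made up 23.8% ± 3.49 and 21.7% ± 6.92 at day 0 in WT and in *Hsf1* null, and 33.3% ± 3.81 and 35.5% ± 5.35 at day 15. The lengths used matter here: with the longest transcript in place of all exons the *Lama1* share in WT day 15 was 14.98% ± 3.76 that of *Lama4* was 36.7% ± 1.63 in place of 23.5% ± 0.709, and that of *Lama5* was 26.0% ± 2.61, so *Lama4* then lay above *Lama5* without overlap. In WT day 0 they also ceased to overlap, at 36.7% ± 2.46 for *Lama4* and 18.3% ± 2.16 for *Lama5*.

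Among the 3 β chains, *Lamb3* made up 63.9% and 76.8% of the summed level in WT day 0, 74.5% and 57.4% in *Hsf1* null day 0, 67.6% and 73.2% in WT day 15, and 90.5% and 81.1% in *Hsf1* null day 15. Only in the last group did both mice lie above all the other mice. *Lamb1* made up 2.47% and 9.12% there, below its 9.74% to 22.2% in the other 6 mice.

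**Figure D2:**
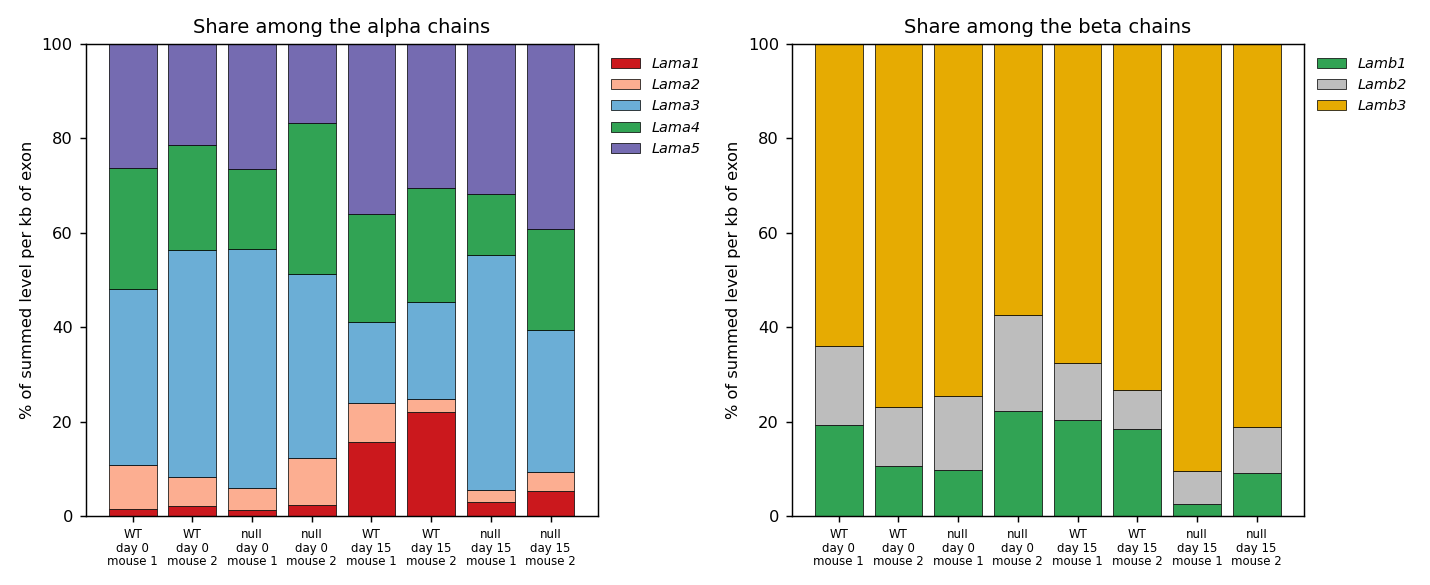
Share of each α chain (left) and each β chain (right) in the summed CPM per kb of exon, in percent, with 1 stacked bar per mouse (null: *Hsf1* null). The *Lama1* share was 15.7% and 22.0% in the treated WT mice and 5.30% or less in the other 6 mice, and the *Lamb3* share of the β chains reached 90.5% and 81.1% in the treated *Hsf1* null mice.

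WT and *Hsf1* null mice were first compared without treatment. None of the 9 chains was called at day 0 by edgeR's quasi-likelihood test, in which a gene was called when its Benjamini-Hochberg adjusted p was under 0.05 and its absolute log2 fold change above 1. No gene of the 14371 tested was called there (0%), no laminin chain had an unadjusted p under 0.05 against 6.29% of all genes, and DESeq2 called 18 genes and no chain. All 9 fold changes were above 0, as were 50.8% of those of all genes, with a median log2 fold change of 0.35 against 0.01 for all genes. The largest was that of *Lamb1*, 0.42 ± 0.52 (SE, adjusted p = 0.912), and that of *Lama1* was 0.29 ± 0.62 (adjusted p = 0.954). The signs rested on single mice, since 7 of the chains turned below 0 when 1 of the untreated mice was left out. Only *Lamc1* did not overlap between the genotypes, which was true of 37.1% of all genes.

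At day 15, *Lama1* was higher in WT than in *Hsf1* null mice by 3.10 ± 0.50 on the log2 scale (SE), or 8.55-fold (adjusted p = 0.0210), and was the only 1 of the 9 chains called. In this comparison 3.17% of all genes were called, and 1.25% of all genes were called higher in WT. Ranked from the highest fold change downward, *Lama1* was number 105 of the 14371 genes. The call was lost without mouse 1 or mouse 2 of *Hsf1* null day 0 (adjusted p = 0.0526 and 0.0529), without mouse 2 of WT day 15 (0.109), without mouse 1 of *Hsf1* null day 15 (0.118), and when only the 4 treated mice were fitted (0.0711), while the log2 fold change stayed between 2.57 and 3.93 whichever mouse was left out. In DESeq2 the adjusted p was 4.46e-07.

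Of the other 8 chains, 5 had positive fold changes at day 15 that did not pass the adjusted threshold. *Lamc1* was 1.33 ± 0.37 (SE) on the log2 scale (edgeR adjusted p = 0.0738), *Lama4* 1.39 ± 0.46 (0.116), *Lama2* 1.67 ± 0.63 (0.151), *Lamb1* 1.30 ± 0.52 (0.170) and *Lama5* 0.86 ± 0.35 (0.174). These 5 values moved with single mice: without mouse 1 of *Hsf1* null day 15 *Lamc1* was 0.83, *Lama4* 0.88, *Lamb1* 0.66 and *Lama5* 0.48, and without mouse 2 they were 2.06, 2.17, 2.46 and 1.37. *Lama2* was 0.86 without mouse 1 of WT day 15 and 2.45 without mouse 2 of *Hsf1* null day 15. *Lama3* and *Lamb2* were at -0.01 ± 0.24 and -0.21 ± 0.28, and *Lamb3* was at -0.74 ± 0.32 (adjusted p = 0.197). Counted at an unadjusted p under 0.05, 7 of the 9 chains differed against 23.2% of all genes, 6 had a fold change above 0 against 52.1%, 5 had a log2 fold change above 1 against 12.1%, and 7 did not overlap between genotypes against 54.8%. The median was 1.30 against 0.04 for all genes, and 1.08 without *Lama1*. DESeq2 called *Lama1*, *Lama2*, *Lama4* and *Lamc1*, 4 of the 9 chains, where it called 8.67% of the 13813 genes to which it gave an adjusted p. Leaving out mouse 2 of *Hsf1* null day 15 likewise gave 4 calls, *Lama1*, *Lama4*, *Lamb1* and *Lamc1*, among 6.06% of all genes.

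In WT mice, *Lama1* rose from day 0 to day 15 by 4.43 ± 0.56 on the log2 scale (SE), 21.5-fold (edgeR adjusted p = 0.00597), and ranked number 60 of all genes. This call held with every mouse left out in turn, with adjusted p between 0.00149 and 0.0355. *Lama5* also rose, by 1.38 ± 0.35 (adjusted p = 0.0426), 2.61-fold. That call was close to the threshold, and it was lost without either mouse of WT day 0, of *Hsf1* null day 0 or of WT day 15, where the log2 fold change was between 1.08 and 1.83 and the adjusted p between 0.0562 and 0.251. Thus 2 of 9 chains were called, where 7.74% of all genes were called and 3.47% of all genes were called as rising. *Lamc1* was at 0.96 ± 0.36 (adjusted p = 0.124), *Lama4* at 0.90 ± 0.46 (0.236) and *Lamb1* at 0.74 ± 0.51 (0.377), and the other 4 lay between -0.19 for *Lama3* and 0.44 for *Lamb3*. Single untreated mice moved these values, *Lamb1* being 1.36 without mouse 1 of WT day 0 and 0.34 without mouse 2, *Lama4* 1.27 and 0.62, and *Lamc1* 1.28 and 0.70. Counted at an unadjusted p under 0.05, 3 of the 9 chains differed against 27.6% of all genes, and 6 did not overlap between days against 62.5%. The untreated WT mice serve as controls here and as the WT side of the day 0 comparison.

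In *Hsf1* null mice the chain that rose was *Lamb3*, by 1.56 ± 0.33 on the log2 scale (SE), 2.94-fold (edgeR adjusted p = 0.0211), 1 of 9 chains where 11.8% of all genes were called and 5.3% of all genes were called as rising. The call was lost without mouse 2 of *Hsf1* null day 0 (log2 fold change 1.18, adjusted p = 0.164), without mouse 1 of *Hsf1* null day 15 (1.42, 0.0702) and without mouse 2 of *Hsf1* null day 15 (1.68, 0.0516). *Lama1* was at 1.62 ± 0.57 (adjusted p = 0.0840), and its mice did not overlap between days, as for 61.3% of all genes. DESeq2 called this rise (1.60, adjusted p = 0.0420). Without mouse 2 of *Hsf1* null day 15 its log2 fold change was 0.80. *Lama5* was at 0.89 ± 0.36 (adjusted p = 0.114), and at 1.27 and 0.39 without mouse 1 and mouse 2 of *Hsf1* null day 15. At an unadjusted p under 0.05, 3 of the 9 chains differed against 32.6% of all genes. The other 6 chains lay between -0.94 for *Lama2*, which ranged from -1.72 to -0.22 with each mouse left out, and 0.14 for *Lamb2*, and the median of the 9 was -0.02 against 0.05 for all genes.

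The difference between genotypes in the change to day 15 was also tested directly. For *Lama1* it was 2.81 ± 0.79 on the log2 scale (SE, unadjusted p = 0.00540, edgeR adjusted p = 0.413), a larger change in WT, and for *Lamb3* it was -1.12 ± 0.45 (unadjusted p = 0.0322, adjusted p = 0.544), a larger change in *Hsf1* null. With each mouse left out, the value of *Lama1* ranged from 2.29 without mouse 1 of *Hsf1* null day 15 to 3.63 without mouse 2, and that of *Lamb3* from -1.67 without mouse 1 of *Hsf1* null day 0 to -0.74 without mouse 2. These were the only 2 chains with an unadjusted p under 0.05, against 8.61% of all genes, and no chain was called, with 0.00696% of all genes called. Hence the change of *Lama1*, called by edgeR in WT and not in *Hsf1* null mice and by DESeq2 in both, was not shown to differ between them after adjustment.

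**Figure D3:**
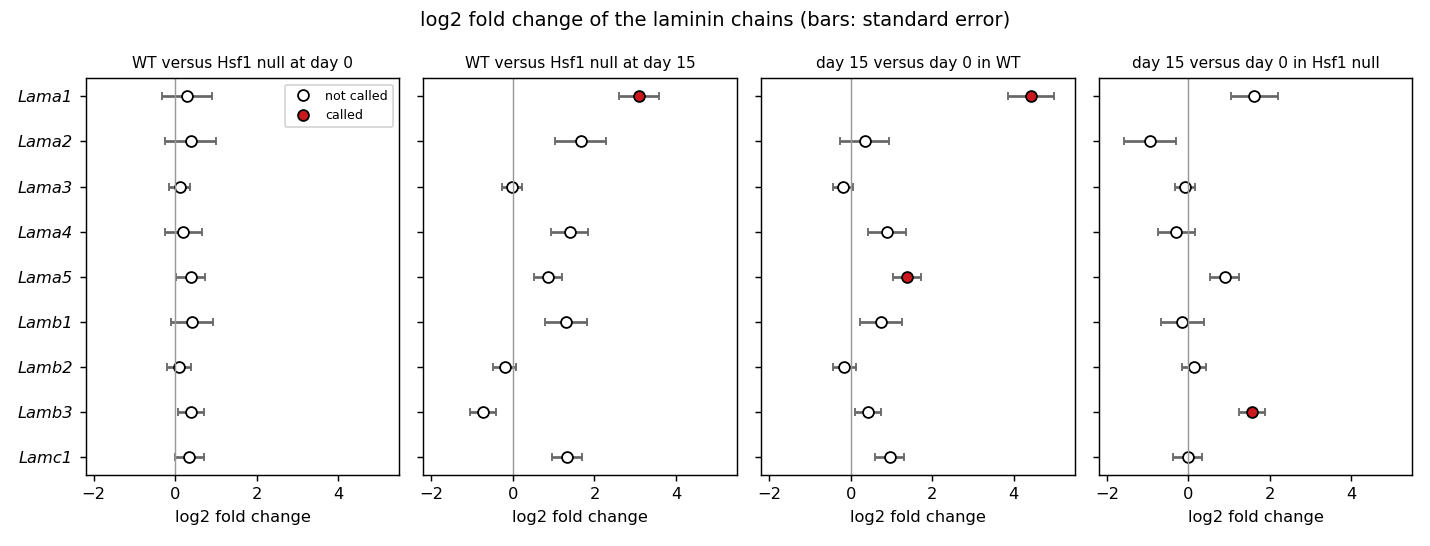
log2 fold change of each laminin chain in 4 comparisons; points are edgeR estimates, bars are standard errors, and red points were called at an adjusted p under 0.05 with an absolute log2 fold change above 1. *Lama1* was called at day 15 (3.10) and over time in WT (4.43), *Lama5* over time in WT (1.38), and *Lamb3* over time in *Hsf1* null mice (1.56).

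The level of *Lama1* relative to the other chains of the same mouse was described by a log2 ratio, taken on CPM plus 0.5. Against the mean of the other 8 chains it was -4.61 and -3.98 in WT day 0, -4.53 and -3.84 in *Hsf1* null day 0, -1.11 and -0.40 in WT day 15, and -3.31 and -2.87 in *Hsf1* null day 15. The ratio was thus higher in both treated WT mice than in any other mouse, by 2.34 over the mean of the treated *Hsf1* null mice, and the genotypes differed by -0.11 at day 0. The same was seen against each chain singly. The difference between genotypes at day 15 ranged from 1.50 against *Lama2* to 3.84 against *Lamb3*, without overlap for any of the 8, and was 1.64 against *Lamc1* and 2.17 against *Lama5*. From day 0 to day 15 the ratio to the 8 chains rose by 3.54 in WT and by 1.09 in *Hsf1* null mice. Leaving out each mouse in turn gave differences at day 15 between 1.98 and 2.69. Since *Lama1* was singled out on these mice, the ratio is given without a test.

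**Figure D4:**
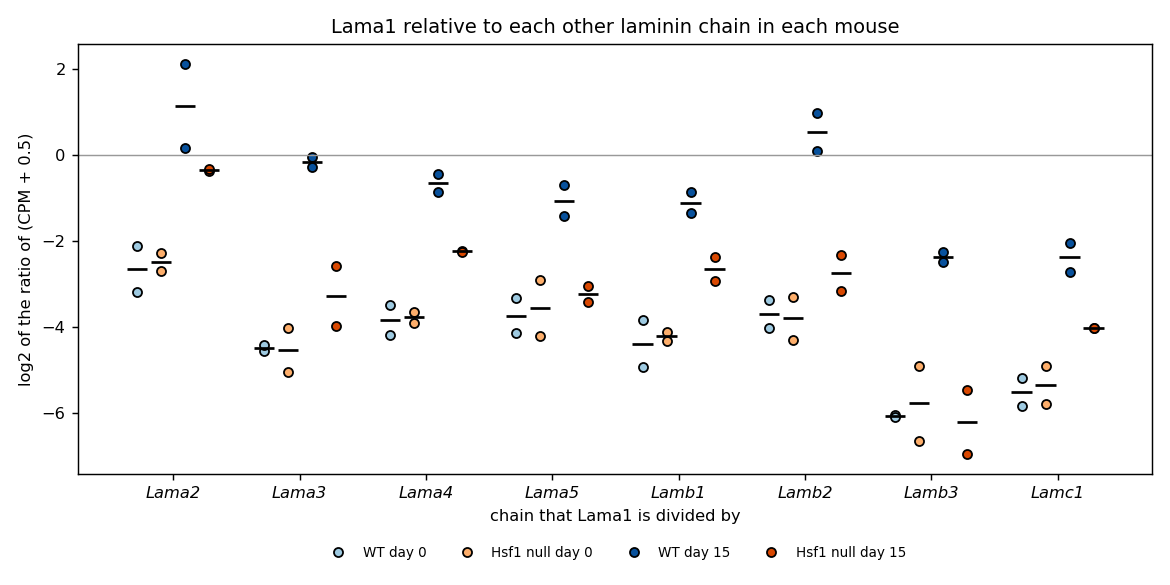
log2 of the ratio of *Lama1* to each other chain (CPM + 0.5, vertical axis) in every mouse; colours are the 4 groups and short lines are the means of 2 mice. For each of the 8 chains the treated WT mice (dark blue) lie above the treated *Hsf1* null mice (dark orange), and for untreated mice the genotypes overlap.

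Of the ratios between other chains, 3 were computed. The log2 ratio of *Lamb3* to *Lamc1* was 0.23 and 0.90 in WT day 0, 0.86 and -0.02 in *Hsf1* null day 0, -0.22 and 0.21 in WT day 15, and 2.93 and 1.46 in *Hsf1* null day 15. Only the treated *Hsf1* null mice stood apart. The log2 ratio of *Lamb1* to *Lamc1* was -0.90 and -1.35, -1.48 and -0.80, -1.36 and -1.18, and -1.65 and -1.10 in the same order, with overlap between genotypes on both days. *Lamb3* relative to its partner *Lama3* was 1.59 ± 0.14 (SD, n = 2) and 1.24 ± 0.51 on the log2 scale at day 0 in WT and *Hsf1* null mice, and 2.21 ± 0.02 and 2.94 ± 0.07 at day 15.

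In whole tissue, fewer cells of a type and less RNA per cell cannot be told apart, and markers of several cell types moved with genotype at day 15. Summed fibroblast markers were at 2418 and 2461 CPM in WT day 15 and at 463 and 1463 CPM in *Hsf1* null day 15, and 8 of 8 had fold changes above 0 against 52.1% of all genes, with none called against 3.17% of all genes. Summed endothelial markers were at 327 and 261 CPM against 71.0 and 149.9 CPM, with 8 of 8 above 0 and 1 called higher, against 1.25% of all genes, *Cdh5*, the cadherin of endothelial junctions (2.36 ± 0.46, SE, edgeR adjusted p = 0.0316). Summed leukocyte markers were at 1034 and 2050.1 CPM against 344 and 733 CPM, with 8 of 8 above 0 and none called. Epithelial markers went the other way, at 14394 and 15791 CPM against 22696 and 20051 CPM, with 0 of 8 above 0, as did smooth muscle markers, at 3538 and 2065 CPM against 5068 and 5893 CPM, with 0 of 8 above 0. Mouse 1 of *Hsf1* null day 15 had the lowest fibroblast and endothelial sums of all 8 mice, the highest epithelial sum, and the lowest *Lama2*, *Lama4*, *Lamb1* and *Lamc1*. The part of cell composition in the laminin differences was not tested.

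Levels were also set against these sums. Collagen genes weigh heavily in the fibroblast sum. In mouse 1 of WT day 15 *Col1a1*, *Col1a2* and *Col3a1* were at 801, 633 and 598 of its 2418 CPM. *Col1a1* itself was at 1064 and 166 CPM in WT day 0, so dividing by this sum is not the same as scaling to the number of fibroblasts. Per 1000 CPM of fibroblast markers, *Lama1* was at 0.862 and 2.51 CPM in WT day 0, 1.75 and 2.49 in *Hsf1* null day 0, 15.8 and 24.9 in WT day 15, and 7.04 and 5.66 in *Hsf1* null day 15, so treated WT mice remained above treated *Hsf1* null mice without overlap, with a ratio of means of 3.21, smaller than the 8.55-fold of the fit without this scaling. On the same scale *Lamb1* was at 40.7 and 45.3 in WT day 15 and at 41.2 and 45.0 in *Hsf1* null day 15, *Lama4* at 28.9 and 33.9 against 36.9 and 28.3, and *Lamc1* at 105 and 103 against 131 and 96.9. These 3 chains and *Lama2* overlapped between the genotypes. The other 4 chains were higher in *Hsf1* null day 15 on this scale without overlap, among them *Lama5*, at 85.1 and 49.4 there against 42.7 and 40.7 in treated WT mice, the reverse of its order in CPM. The fibroblast sum was lower in both treated *Hsf1* null mice than in either treated WT mouse, so the division raises any gene with unchanged CPM there. The share of all genes higher on this scale without overlap was not computed. Per 1000 CPM of endothelial markers *Lama1* was at 117 and 235 in WT day 15 and at 45.9 and 55.3 in *Hsf1* null day 15, again without overlap, whereas *Lama4* was at 214 and 320 against 240 and 276. The epithelial and smooth muscle sums were lower in both treated WT mice than in either treated *Hsf1* null mouse, and against them the *Lama1* ratio of means was larger, 11.8 and 19.8, without overlap. Per 1000 CPM of epithelial markers *Lamb3* was at 15.2 and 18.6 in WT day 15 and at 20.6 and 19.5 in *Hsf1* null day 15. Per 1000 CPM of smooth muscle markers it was at 61.7 and 143 against 92.1 and 66.2, with overlap and with the higher mean in WT, so its direction depended on the markers chosen.

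Markers were also counted over time. In WT mice 6 of 8 smooth muscle markers fell (*Actg2*, *Cnn1*, *Des*, *Myh11*, *Synpo2* and *Tagln*), 3 of 8 leukocyte markers rose (*Cd14*, *Cd3e* and *Itgb2*), and no fibroblast, endothelial or epithelial marker was called, where 4.27% of all genes fell and 3.47% rose. Over time in *Hsf1* null mice *Synpo2* and the fibroblast marker *Dcn* fell, and *Cdx2* and *Cd3e* rose, where 6.48% of all genes fell and 5.3% rose. *Dcn* did not stand for its list, since 4 of the 8 fibroblast markers were above 0 there. The median log2 fold change of the list was 0.08 against 0.05 for all genes. Summed enteric nerve and glia markers lay between 58.5 and 173 CPM, with 1 of 8 rising in each genotype (*Ret* in WT and *Uchl1* in *Hsf1* null), mesothelial markers between 5.89 and 29.8 CPM and skeletal muscle markers between 12.7 and 42.8 CPM. None of the mesothelial or adipocyte markers was called in any comparison. Of the skeletal muscle markers *Ckm* fell over time in WT and *Acta1* rose in *Hsf1* null mice. Adipocyte markers ranged from 3.88 to 278 CPM, and all 4 groups overlapped. Of the squamous markers, *Krt13* rose over time in both genotypes and *Krt14* in *Hsf1* null mice.

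Laminins are held in the basement membrane by other matrix proteins, are read by receptors and are cut by proteases, and these lists were counted in the same fits. Of 20 basement membrane partners tested, from 23 listed, 2 were higher in WT at day 15, against 1.25% of all genes. *Col18a1*, whose product is a heparan sulfate collagen of basement membranes, was at 482 and 269 CPM in WT day 15 and at 32.7 and 101 CPM in *Hsf1* null day 15 (2.49 ± 0.50 on the log2 scale, SE, edgeR adjusted p = 0.0331). *Nid2*, which encodes nidogen 2, a linker between laminin and type IV collagen, was at 67.7 CPM in both treated WT mice and at 10.4 and 18.6 CPM in the treated *Hsf1* null mice (2.22 ± 0.38, adjusted p = 0.0226). Both rose over time in WT, *Col18a1* by 3.29 ± 0.52 (adjusted p = 0.0103) and *Nid2* by 1.59 ± 0.37 (adjusted p = 0.0320), with *Col4a1* (1.97 ± 0.46, adjusted p = 0.0315) and *Col4a2* (1.78 ± 0.42, adjusted p = 0.0326), the type IV collagen chains that form the network on which laminin rests. Hence 4 of the 20 rose in WT, against 3.47% of all genes. In *Hsf1* null mice none of the 20 rose, against 5.3% of all genes, and 1 fell, against 6.48%, *Ntn4*, a short laminin-related netrin (-1.94 ± 0.57, adjusted p = 0.0494). At day 15 the median log2 fold change of the 20 partners between genotypes was 0.85 against 0.04 for all genes.

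None of the 11 laminin receptors was called in any of the 5 comparisons, where 0% to 11.8% of all genes were called. The 2 with the highest levels were *Sdc4*, a syndecan, and *Itgb4*, the integrin β chain of hemidesmosomes. *Itgb4* was at 294 CPM in both treated WT mice and at 336 and 247 CPM in the treated *Hsf1* null mice, with a log2 fold change of 0.01 ± 0.31 (SE, edgeR adjusted p = 0.985). *Sdc4* was at 422 and 499 CPM against 971 and 376 CPM (-0.55 ± 0.46, adjusted p = 0.502). At an unadjusted p under 0.05, 2 of the 11 differed between genotypes at day 15 against 23.2% of all genes, and the median was 0.31 against 0.04. Of 20 genes listed for the sugar chain by which dystroglycan binds laminin, 13 were in the table and gave a median of -0.08 at day 15 with none called between genotypes, against 3.17% of all genes. Of these 1 of 13, *Pomt1*, which adds the first mannose, rose in *Hsf1* null mice (1.10 ± 0.28, adjusted p = 0.0361), against 5.3% of all genes.

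Of 8 proteases known to cut laminins, *Mmp2*, a gelatinase made mostly by stromal cells, was the only 1 called as higher in WT at day 15, against 1.25% of all genes, at 456 and 260 CPM against 44.5 and 127 CPM (2.06 ± 0.46 on the log2 scale, SE, edgeR adjusted p = 0.0446). All 8 had fold changes above 0 against 52.1% of all genes, with a median of 1.40 against 0.04. Over time in WT 4 of the 8 rose, against 3.47% of all genes, *Mmp2* by 2.13 ± 0.46 (adjusted p = 0.0265), *Mmp3*, *Mmp7* and *Mmp9*. Of these *Mmp3*, stromelysin 1, was at 14.3 and 215 CPM in the treated WT mice, more than 10-fold apart. In *Hsf1* null mice none of the 8 was called, against 11.8% of all genes, although 7 had fold changes above 0. Their median there was 0.79 against 0.05 for all genes. The difference between genotypes in the change was called for none of the 8, against 0.00696% of all genes.

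**Figure D5:**
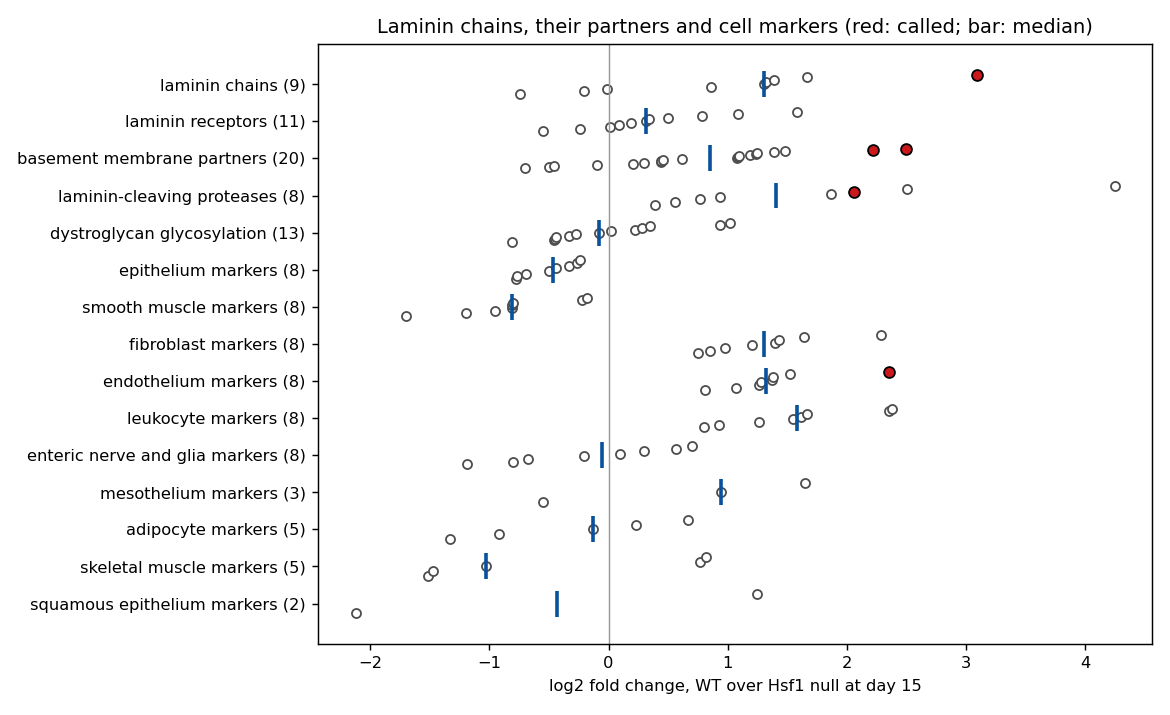
log2 fold change of WT over *Hsf1* null mice at day 15 (horizontal axis) for every tested gene of each list, with the number of genes in brackets; red points were called, and blue bars are list medians. The laminin chains (median 1.30) and the laminin-cleaving proteases (1.40) lie beside the fibroblast (1.30), endothelial (1.32) and leukocyte (1.58) markers, and the receptors (0.31) and the epithelial (-0.47) and smooth muscle (-0.81) markers lie lower.

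By likeness of pattern, the 5 genes closest to *Lama1* over the 8 mice were *Ly6c1*, *Fut2*, *S100a9*, *Socs3* and *Retnlg*, with Pearson r of log2(CPM + 0.5) between 0.981 and 0.992. This is a description, since the mice share 4 groups and 232 of the 14362 other genes had r above 0.9. *Ly6c1*, a surface antigen of monocytes and endothelium, was at 400.2 and 591 CPM in the treated WT mice, 92.5 and 163 CPM in the treated *Hsf1* null mice and 47.8 to 59.6 CPM in untreated mice. *Socs3*, a feedback inhibitor of cytokine signaling, was at 89.8 and 133 CPM, 11.5 and 12.7 CPM and 3.36 to 7.94 CPM in the same order. *S100a9*, a calcium-binding protein of neutrophils, was at 54.5 and 297 CPM in the treated WT mice, so it spread more than *Lama1* did. For the other α chains the closest gene was *Bub1* for *Lama2* (r = 0.956), *Ddx60* for *Lama3* (0.939), *Epb4.1l2* for *Lama4* (0.991) and *Dnah17* for *Lama5* (0.995). *Dnah17* was near the floor, at 0 CPM in mouse 2 of WT day 0 and of *Hsf1* null day 0 and at most 3.48 CPM elsewhere. With *Lama5*, 530 genes had r above 0.9. For the remaining chains the closest gene was *Vcan* for *Lamb1* (0.982), *Igfbp6* for *Lamb2* (0.919), *Rfx1* for *Lamb3* (0.981) and *Tmem119* for *Lamc1* (0.984).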

How the data were processed

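The authors prepared SENSE mRNA-seq libraries from distal colon, aligned the reads to mm10 with STAR and deposited raw counts per gene by symbol. The program that counted the reads was not given in the sources used here. Every gene in the table reached 6 counts in some sample. The second deposited table holds a score per gene and sample, each count divided by its sample's DESeq2 size factor by the authors, and served only to check the normalization. Genotype, day and replicate number in the labels set the groups. The labels' protocol ends directly after 5 days of DSS, whereas the titles give day 15.

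Counts were fitted in R 4.3.3 with edgeR 4.0.16 (TMM, quasi-likelihood test, prior degrees of freedom 5.97) as 4 group means over the 8 libraries. Tests covered 14371 genes whose normalized counts averaged above 5, in 5 comparisons, with p-values adjusted by Benjamini-Hochberg over all of them. A gene was called at an adjusted p under 0.05 and a log2 fold change beyond 1 in size, the thresholds of the study's methods. A standard error is the log2 fold change divided by the root of its F statistic. CPM used TMM library sizes, log2 levels a pseudocount of 0.5, and lengths GENCODE M21. Totals of 2553348 to 12440257 counts left *Lama1* with as few as 6 counts.

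On simulated counts for WT against *Hsf1* null at day 15 (14341 genes), edgeR recovered 172 of 197 changed genes with 14 false calls, and DESeq2 1.42.0 recovered 167 with 21. The planted changes were larger than those of the chains not called in this comparison, and every gene was given the same spread. The recovery therefore does not tell how often changes of the size of those chains are found. The limit on false calls that the simulation had to meet was widened after DESeq2 exceeded it. No fit was changed.

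The members and the gene lists (laminin receptors, basement membrane partners, laminin-cleaving proteases, dystroglycan glycosylation and markers of 10 cell types) were chosen with earlier results of these data known. The text names all members, *Hsf1*, genes of a list called in any comparison or else the 2 with the highest mean CPM, the 5 genes most correlated with *Lama1* and the closest 1 for each other chain. Alternatives were DESeq2, its size factors, other filters, a replicate block, fits of the compared groups alone, thinned counts, other lengths and pseudocounts, and leaving out each mouse.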

Additional observations from a re-analysis of the deposited data

How the results depend on the processing

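Of 711 log2 fold changes of single chains recomputed under alternative settings, 659 kept their direction and their side of the threshold, 26 changed sign, 11 became called and 15 lost their call. A group left with 1 mouse was taken to vary like the others. The count of laminin chains called between genotypes at day 15 was 1. It became 4 in DESeq2, 0 when only the treated mice were fitted (*Lama1* 3.08, adjusted p = 0.0711), and 0 to 4 with each mouse left out, with *Lama1* between 2.57 and 3.93. DESeq2 there called 1197 genes in place of 455, and the fit of the treated mice alone called 6. Over time in WT DESeq2 called 1737 genes in place of 1112. With each mouse left out, the genes called ranged from 12 to 871 between genotypes at day 15, from 113 to 1331 over time in WT and from 0 to 1888 over time in *Hsf1* null mice. Over time in WT the count was 2, against 1 to 2 with each mouse left out, and over time in *Hsf1* null mice it was 1, against 2 in DESeq2 (*Lamb3* and *Lama1*) and 0 to 1 with each mouse left out. Without mouse 2 of *Hsf1* null day 0 no gene at all was called there, in place of 1692. The count at day 0 and that of the difference between genotypes in the change stayed at 0, although DESeq2 called 130 genes in the latter in place of 1. The ratio of *Lama1* to the other chains kept its direction under all alternatives run. The cause of these shifts was not tested.

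Same-numbered mice are different animals, and deviations of same-numbered mice correlated by 0.15 and 0.02 between genotypes at days 15 and 0, and by -0.30 and 0.17 between days in WT and in *Hsf1* null mice, so the numbers do not pair the samples. With a replicate block the number of chains called over time in WT was 1 in place of 2, *Lama5* being lost (adjusted p = 0.0611). There 6.04% of all genes were called in place of 7.74%, and no other count of chains changed. A block with the WT mice of day 0 exchanged, added after seeing the data, called 4 chains at day 15, where it called 9.14% of all genes. Over time in *Hsf1* null mice it called 2 chains, *Lama1* among them (adjusted p = 0.0374), where it called 16% of all genes.

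Chains near 0 changed sign when single mice were left out, over these ranges of log2 fold change. Between genotypes at day 0 these were -0.32 to 0.71 for *Lama1*, -0.28 to 1.10 for *Lama2*, -0.28 to 0.82 for *Lama4*, -0.073 to 0.67 for *Lama5*, -0.20 to 0.81 for *Lamb1*, -0.25 to 0.32 for *Lamb2* (-0.085 in counts thinned to the smallest library) and -0.0021 to 0.92 for *Lamb3*. At day 15 *Lama3* ranged from -0.26 to 0.20. Over time in WT *Lama2* ranged from -0.46 to 1.00, *Lama3* from -0.44 to 0.017 and *Lamb2* from -0.40 to 0.18. Over time in *Hsf1* null mice *Lama3* ranged from -0.17 to 0.029, *Lama4* from -1.07 to 0.33, *Lamb1* from -1.30 to 0.50, *Lamb2* from -0.066 to 0.32 and *Lamc1* from -0.76 to 0.47. In the difference between genotypes *Lama3* ranged from -0.36 to 0.094 and *Lamb2* from -0.52 to 0.042.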
